A study of Drosophila melanogaster with 16 samples.

Results

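The proteasome subunit genes of Drosophila melanogaster were followed across control embryos and embryos that overexpressed gcm. They were chosen by symbol: every gene whose probe set carried a single symbol beginning with Prosalpha, Prosbeta, Rpn or Rpt and a number, with 1 probe set per gene, the one with the highest mean. The rule gave 39 genes of the 10844 genes represented on the arrays by a probe set with 1 symbol. Of these, 26 are the subunits of the general proteasome, made up of 6 Prosalpha, 6 Prosbeta, 4 Rpt and 10 Rpn genes. The other 13 carry a T or an R after the subunit number and are paralogs of limited expression. Prosbeta1, Rpt1, Rpt6, Rpn9 and Rpn10 were not analysed here, nor was the probe set that names both Prosalpha1 and Prosalpha1R.

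The proteasome is the protease that destroys proteins marked with ubiquitin. Its core particle is a barrel of alpha rings, which gate the entry, around beta rings, which carry the proteolytic sites. Its regulatory particle sits on the barrel and has a base, with the Rpt ATPases that unfold the substrate and the Rpn1, Rpn2 and Rpn13 subunits, and a lid of other Rpn subunits that includes the deubiquitinase Rpn11. All cells need it, and in many organisms the subunit genes are transcribed together.

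Total RNA was hybridised to Affymetrix Drosophila arrays in 4 groups of stage 11 embryos. Sorted control and sorted gcm arrays hold neuroectodermal cells that carried the membrane protein mCD8-GFP and were taken from dissociated embryos with anti-mCD8 microbeads, from wild-type embryos or from embryos overexpressing glide/gcm, the transcription factor that directs cells to the glial fate. Whole control and whole gcm arrays hold unsorted embryos, and the labels name the gcm embryos scagcm without giving the construct that drove gcm or mCD8-GFP. They do not say either that replicates came from separate embryo collections, so p-values measure the spread between these arrays, which may be technical. Of 16 deposited arrays, sorted gcm 2 and 3 held identical values and were counted as 1 sample.

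Levels are log2 of the quantile-normalised intensity plus 16, a scale on which a level of 5 or less is at or near background and on which a fold change understates the change of low genes. The level of gcm was 11.25 to 12.07 on the 4 sorted control arrays, 13.01 to 13.13 on the 3 distinct sorted gcm arrays, 8.07 to 8.66 on whole control arrays 1, 2 and 4, and 10.49 to 11.21 on the 4 whole gcm arrays. The array labelled whole control 3 stood apart: its gcm level was 13.10, and its profile correlated with the sorted arrays at a mean r of 0.93 and with the other whole embryo arrays at 0.69. It was left out, which leaves 14 arrays, and values from 15 arrays with it are given beside the results. Marker lists of cell types are given beside the 24.9% of all probe sets that were higher in sorted cells than in whole embryos of the controls and the 21.4% that were lower, and the 24.7% and 20.9% in gcm embryos. Of 5 neuronal genes 4 were higher in each genotype, of 5 glial genes 5, of 4 tracheal genes 4 and of 3 mesoderm and muscle genes 2. The glial list includes gcm itself. Of 8 neuroectoderm and neuroblast genes 5 were higher in each genotype, while 2 were lower in controls and 1 in gcm embryos. Of 5 hemocyte genes 2 were higher in controls and 1 in gcm embryos, and none was lower. Of 5 endoderm, yolk and amnioserosa genes 1 was higher and 2 were lower in controls, and 2 were higher and 3 lower in gcm embryos. Of 6 germ cell and maternal genes 3 were lower in controls and 5 in gcm embryos. A list of 5 heat shock and dissociation stress genes had 2 higher and 2 lower in controls, and 1 higher and 1 lower in gcm embryos. Tracheal markers and the mesoderm list genes twi and sna were thus higher in sorted cells beside those of neural cells. Whether twi and sna mark mesodermal cells in these samples was not tested. The other gene of that list that was measured, bap, changed by -0.42 in controls and 0.14 in gcm embryos and did not pass. The part of other cell types or of stress from dissociation in the results was not tested. In bulk samples such as these, fewer cells of a type and less RNA per cell cannot be told apart.

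In sorted control cells every measured core particle gene was lower than in whole control embryos, while the regulatory particle genes went in both directions. Averaged over the 12 core particle genes, the level was 6.69, 6.68, 6.38 and 6.14 on the 4 sorted control arrays and 9.19, 9.62 and 9.90 on the 3 whole control arrays. The average over the 14 regulatory particle genes was 9.02, 8.80, 8.69 and 8.66 in sorted cells and 9.20, 9.12 and 9.29 in whole embryos. The core particle averages therefore lay far apart between the groups, and the regulatory averages close together. The array labelled whole control 3 had core and regulatory averages of 6.49 and 8.51, the first among and the second below those of the sorted arrays.

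**Figure D1:**
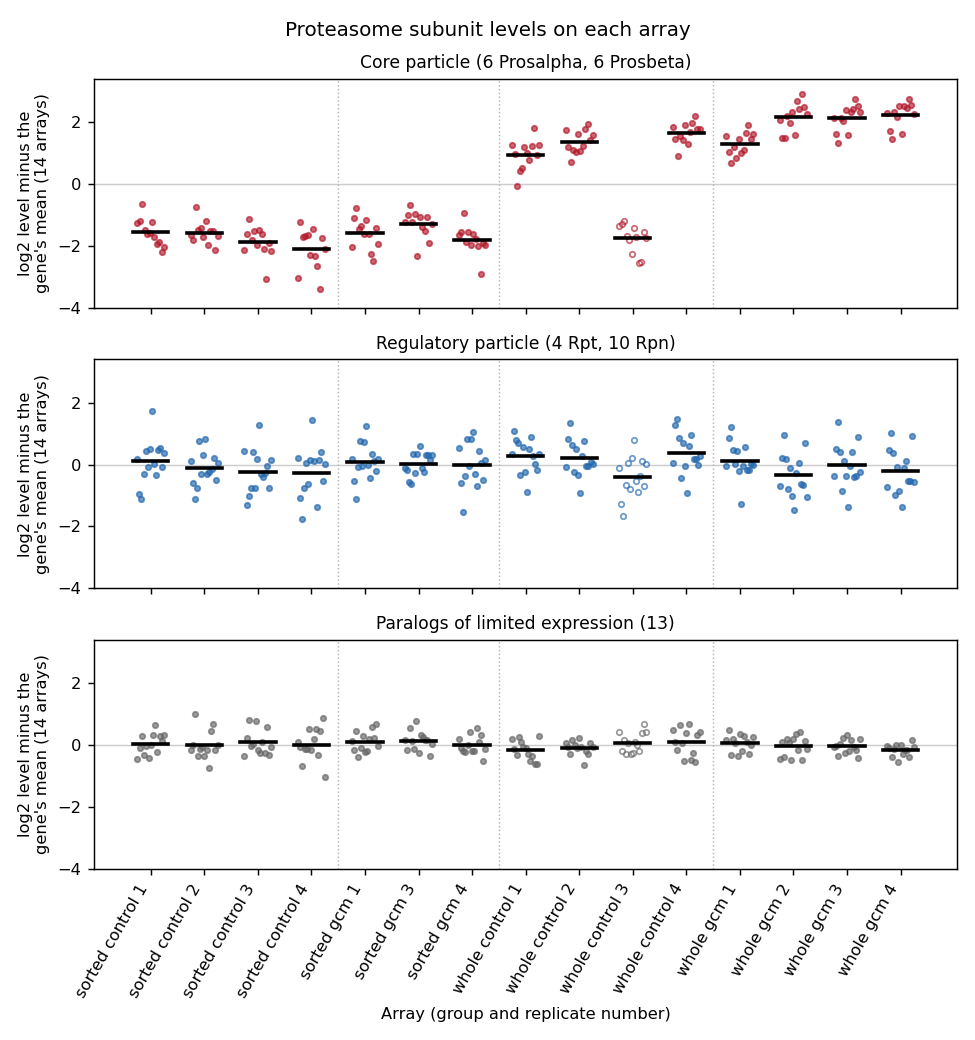
Level of each proteasome subunit gene on each array, as the difference in log2 level from that gene's mean over 14 arrays. Each point is a gene, black bars are means over the genes of a panel, dotted lines part the 4 groups, and open circles mark the array labelled whole control 3, where the core particle genes averaged 6.49 and thus lay among the sorted arrays.

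Of the 39 members, 23 passed the test in controls, 20 of them lower and 3 higher in sorted cells (limma, Benjamini-Hochberg adjusted p under 0.05 over all probe sets). Sorting changed much of the transcriptome, since 46.4% of all 13966 probe sets passed, 21.4% lower and 24.9% higher. The median change over the 12 core particle genes was -3.25 on the log2 scale, against -0.25 over the 14 regulatory genes and 0.07 over all probe sets. With the array labelled whole control 3 the test passed 17 members lower and 2 higher, against 13.3% and 12.8% of all probe sets. Rpn2, Rpn3, Rpn7 and Prosalpha6T lost the call there, and the core particle median was -2.43.

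All 6 alpha ring genes were lower in sorted control cells. Prosalpha2 changed by -3.63 on the log2 scale and Prosalpha7 by -3.46. In sorted control cells their deposited intensities were only 16.8 to 77.3 and 23.3 to 44.5, so these values are not exact folds. Prosalpha3, Prosalpha5 and Prosalpha6 changed by -2.66, -2.63 and -2.55. Prosalpha4 changed least among the core genes. Its level was 7.68, 7.57, 7.19 and 6.62 on the sorted control arrays and 8.24, 9.01 and 9.22 on the whole control arrays. The groups did not overlap, and the difference was -1.56 (95% interval -2.14 to -0.98, adjusted p = 0.000185), a 2.95-fold lower value in sorted cells.

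The 6 beta ring genes were lower as well, with a median change of -3.45. Prosbeta5 carries the chymotrypsin-like site, which cuts after hydrophobic residues. Its level was 5.90, 6.24, 4.69 and 4.36 in sorted control cells and 9.57, 9.70 and 9.95 in whole control embryos. The deposited intensities behind these levels were 37.2, 46.6, 10.4 and 4.80 in sorted cells and 922.5, 1147.7 and 1050.2 in embryos. Sorted arrays 3 and 4 thus lay near background, and the other sorted arrays only somewhat above it. The groups did not overlap, and the difference on this scale was -4.44 (SE 0.45, 95% interval -5.40 to -3.49, adjusted p = 6.24e-07). With sorted values so close to background, it is not an exact fold and was not ranked against the other members.

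Prosbeta2, the subunit with the trypsin-like site, had levels of 7.81, 7.87, 7.58 and 7.59 in sorted control cells and 10.05, 10.13 and 10.34 in whole control embryos. The SD over the 4 sorted arrays was 0.15, and all of them lay below the embryos, with a difference of -2.46 (SE 0.18, adjusted p = 1.54e-08). Prosbeta7 had the lowest adjusted p of the members, 2.54e-09, for a fall of 3.54 (SE 0.22). The levels were 6.68, 7.03, 6.57 and 6.61 against 9.97, 10.31 and 10.51, again without overlap. Prosbeta4, Prosbeta6 and Prosbeta3, which have no proteolytic site, changed by -3.71, -3.37 and -3.13. With 15 arrays all 12 core genes still passed, with changes between -3.29 and -1.13 and adjusted p from 0.00606 to 0.0377.

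Prosalpha7 and Prosbeta6 each had a second, dimmer probe set, with mean levels of 4.55 and 4.80. For Prosalpha7 the dimmer one gave 0.34 in controls (adjusted p = 0.086), where the brighter one gave -3.46. The dimmer Prosbeta6 probe set gave -1.03 (adjusted p = 0.000301) where the brighter one gave -3.37. Both dimmer probe sets had mean levels below 5, at or near background, so their values do not give the size of a change. The dimmer Prosbeta6 probe set passed in the same direction as the brighter one. The dimmer Prosalpha7 probe set did not pass and gives no direction.

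Among the base ATPases, the Rpt genes that unfold and translocate the substrate, none of 4 passed in controls. The differences were -0.08 for Rpt2 (95% interval -0.45 to 0.29), 0.21 for Rpt3 (-0.13 to 0.56), -0.43 for Rpt4 (-0.91 to 0.05) and -0.07 for Rpt5 (-0.49 to 0.36). These intervals exclude a fall of 1 log2 unit for each of the 4, while each core particle gene had an interval that ended at -0.98 or lower.

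The 10 Rpn genes were divided, with 6 lower, 2 higher and 2 that did not pass. Rpn12 and Rpn11 fell the most. Rpn12, a lid subunit, had levels of 6.79, 6.80, 6.87 and 6.13 in sorted control cells and 8.70, 9.23 and 9.38 in whole control embryos, and its difference was -2.46 (SE 0.24, adjusted p = 4.81e-07). Rpn11, which removes ubiquitin chains from the substrate, had levels of 6.88, 7.23, 6.50 and 6.72 against 8.89, 8.65 and 9.10, a difference of -2.05 (SE 0.20, adjusted p = 4.11e-07). In neither gene did the groups overlap. Rpn8, the partner of Rpn11 in the lid, changed by -1.46, the ubiquitin receptor Rpn13 by -1.38, and the lid subunits Rpn3 and Rpn7 by -1.03 and -0.58.

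Rpn6, a lid subunit that in yeast bridges the regulatory and the core particle, had the largest rise of the members. Its level was 12.35, 11.43, 11.89 and 12.05 in sorted control cells and 9.73, 9.69 and 9.68 in whole control embryos. All sorted arrays were above all whole embryos, and the difference of 2.23 (SE 0.20, adjusted p = 1.42e-07) is a 4.69-fold higher value. Rpn2, the large scaffold of the base, had 8.68, 8.99, 8.63 and 8.29 against 7.91, 8.01 and 7.81, a rise of 0.74 (adjusted p = 0.0133). It did not pass with 15 arrays (0.64, adjusted p = 0.0589), with median centring (0.54, adjusted p = 0.116) or as deposited (0.12, adjusted p = 0.802). Rpn6 still passed with 15 arrays, with 1.78 (adjusted p = 0.00606). The lid subunit Rpn5 (0.50, adjusted p = 0.0514) and the base subunit Rpn1 (0.12, adjusted p = 0.635) did not pass.

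**Figure D2:**
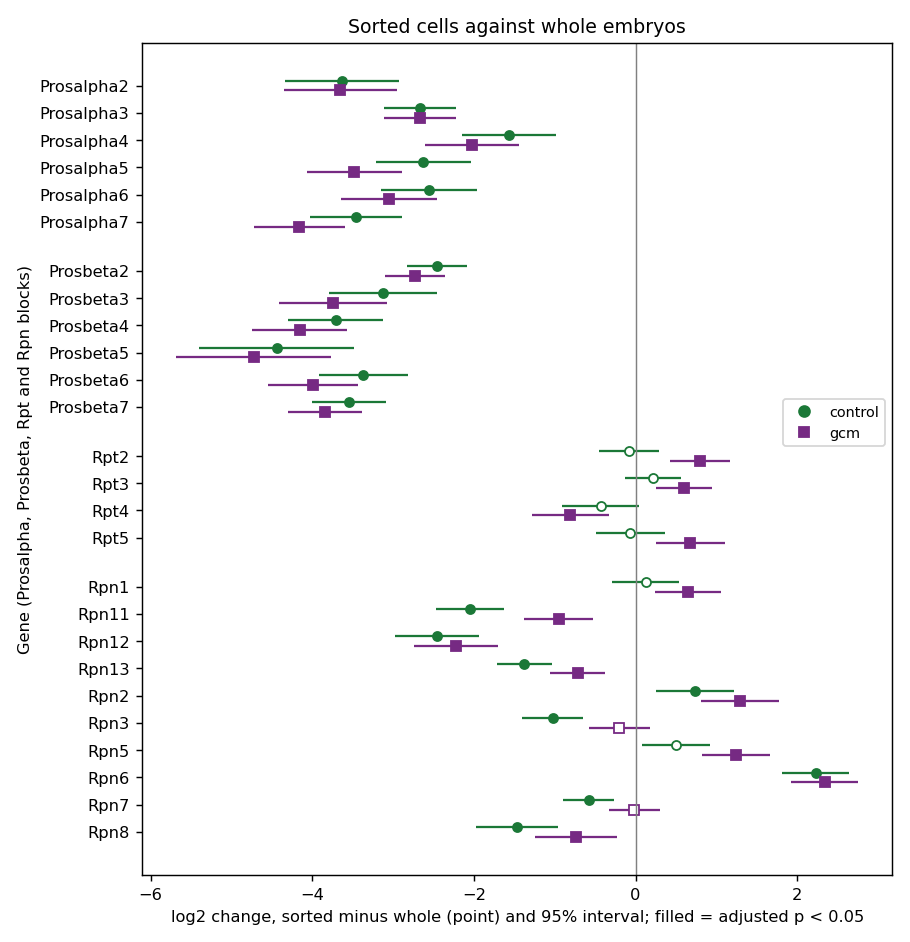
Change in log2 level between sorted cells and whole embryos for the 26 general proteasome subunit genes, in control and in gcm embryos, from the fit to 14 arrays. Points are fitted differences, lines their 95% intervals, and filled points passed at an adjusted p under 0.05. All 12 core particle genes lie at -1.56 or lower in controls, whereas Rpn6 lies at 2.23.

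The same comparison in gcm embryos had 27 members that passed, 18 lower and 9 higher, beside 45.6% of all probe sets, 20.9% lower and 24.7% higher. It shares no array with the comparison in controls, though 1 estimate of the spread served both. All 12 core particle genes were lower again, with a median of -3.70, and Prosalpha4 changed by -2.02. The Prosbeta5 level was 5.29, 6.69 and 4.85 on the 3 sorted gcm arrays and 9.66, 10.65, 10.51 and 10.52 on the 4 whole gcm arrays. The difference on this scale was -4.73 (SE 0.45, adjusted p = 3.53e-07), and since the sorted values were again close to background it is not an exact fold. Prosbeta2 changed by -2.73 (adjusted p = 6.13e-09), Prosalpha7 and Prosbeta4 by -4.16 each, Prosbeta6 by -3.99, Prosbeta7 by -3.84, Prosbeta3 by -3.75 and Prosalpha2 by -3.66. The changes of Prosalpha5, Prosalpha6 and Prosalpha3 were -3.48, -3.05 and -2.67.

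In gcm embryos the regulatory particle was divided, with 7 of 14 genes higher and 5 lower and a median of 0.29. With values as deposited, 3 were higher and 5 lower, and the median was 0.059. Rpn6 rose by 2.34 (SE 0.20, adjusted p = 9.1e-08). Its levels were 11.84, 11.21 and 11.66 in sorted cells against 9.32, 9.13, 9.23 and 9.24 in whole embryos, with no overlap. Rpn2 and Rpn5 rose by 1.29 and 1.24, Rpt2 by 0.80, Rpt5 by 0.68, Rpn1 by 0.65 and Rpt3 by 0.60. Rpn12 changed by -2.22 (adjusted p = 1.52e-06), Rpn11 by -0.95, Rpt4 by -0.81, Rpn8 by -0.74 and Rpn13 by -0.72. Rpn3 (-0.20) and Rpn7 (-0.02) did not pass. As deposited, Rpt2, Rpt3, Rpt5 and Rpn1 had 0.55, 0.36, 0.45 and 0.41 and did not pass, and without sorted gcm 4 neither did Rpn1 (0.48, adjusted p = 0.0775) or Rpn8 (-0.61, adjusted p = 0.0886).

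With 15 arrays, 15 members passed lower and 9 higher in gcm embryos, beside 17.4% and 19.5% of all probe sets, and Rpn8, Rpn11 and Rpn13 lost the call although their groups did not overlap. The whole gcm arrays do not include the doubted array, and it enters this comparison only through the normalisation and the shared estimate of the spread. Among the 26 general subunits, groups did not overlap for 18 lower and 3 higher genes in controls, where the shares over all probe sets were 22.6% and 24.6%. In gcm embryos these counts were 16 and 6, where the shares were 23.4% and 27.3%. The split of calls depended on scaling. With median centring, 7 members were higher and 18 lower in controls, and all probe sets went from 3483 higher and 2995 lower to 4805 and 3019. With values as deposited, 2 were higher and 24 lower in controls, beside 1776 and 4304 over all probe sets, and 5 higher and 17 lower in gcm embryos, beside 2681 and 3201.

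Other transcripts of the translation and protein turnover machinery were set beside the subunits. Over all probe sets, 21.4% were lower and 24.9% higher on sorting in controls, and 20.9% and 24.7% in gcm embryos. Of 37 cytosolic ribosomal protein genes, 32 were lower and 1 higher in sorted control cells, with a median of -3.46. For 64 mitochondrial ribosomal protein genes the count was 61 lower and none higher, with a median of -2.19. In gcm embryos the counts were 31 and 60 lower, with medians of -3.35 and -1.98. The cytosolic ribosomal medians were of similar size to the core particle medians of -3.25 and -3.70, and the mitochondrial ribosomal medians were smaller in size. No test of these lists against the core particle was made.

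Genomic length, introns included, differed between the particles. Core particle genes span 914 to 1369 bp and regulatory particle genes 995 to 4500 bp, in the RefSeq annotation of assembly release 6. Across the 26 general subunits the change on sorting correlated with length at a Spearman rho of 0.81 in controls and 0.82 in gcm embryos, but within the 12 core genes rho was 0.22 and 0.39 and within the 14 regulatory genes 0.46 and 0.47. Across 1679 other genes in the same range of mean level, rho was 0.65 and 0.57. All these points come from the same arrays and are given as a description.

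The 111 other genes within the core particle's range of both length and level had a median change of -1.83 in controls and -1.68 in gcm embryos, and 89.2% and 82.0% of them were called lower. The core medians of -3.25 and -3.70 lay below these. Regulatory genes no more than 100 bp longer than the longest core gene were Rpn12 (995 bp), Rpn11 (1387 bp) and Rpn7 (1393 bp). Only Rpn12 lies within the core range itself. Their changes in controls were -2.46, -2.05 and -0.58. Their median was -2.05, and that of the 11 longer regulatory genes was -0.07. In gcm embryos these medians were -0.95 and 0.65. Among the longer genes, Rpn6, at 2745 bp, and Rpn8, at 4500 bp, changed by 2.23 and -1.46 in controls. The part of length in the change on sorting was not tested.

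**Figure D3:**
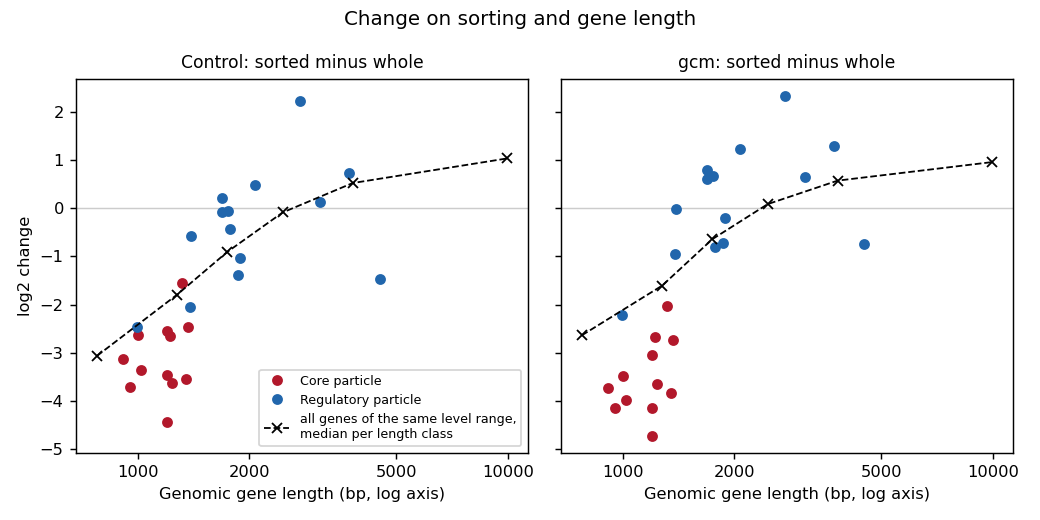
Change in log2 level between sorted cells and whole embryos against genomic gene length on a log axis, for controls and for gcm embryos. Red points are the 12 core and blue points the 14 regulatory particle genes, and the dashed line joins medians of all genes of the same level range in 6 length classes. The core points lie at 914 to 1369 bp and below the dashed line in most cases, and the line itself falls to -3.07 in the shortest class of the controls.

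A marker of RNA quality also moved with sorting for part of the control probe sets. The log2 ratio of the 3' to the 5' probe set of actin was 1.59 to 2.19 on the sorted arrays and 0.49 to 1.21 on the whole embryo arrays, with no overlap. The ratio for GAPDH was -0.80 to 0.58 and 0.23 to 1.21, which is the opposite order with overlap, and that for eIF-4a was 0.89 to 1.20 and 0.86 to 1.25. The part of these differences in the results was not tested.

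Overexpression of gcm in sorted cells gave no call among the 39 members, where 0.773% of all probe sets passed. A single member, Rpn11, had an unadjusted p under 0.05. Its level was 6.88, 7.23, 6.50 and 6.72 in sorted control and 7.27, 7.63 and 7.20 in sorted gcm cells. The groups overlapped slightly, and the difference was 0.54 (95% interval 0.11 to 0.96, adjusted p = 0.311). Among the 12 core particle genes the median was 0.26, and among the 14 regulatory genes 0.20, beside -0.01 over all probe sets.

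The catalytic subunits Prosbeta2 and Prosbeta5 differed between sorted gcm and sorted control cells by 0.05 (95% interval -0.32 to 0.43) and 0.31 (-0.64 to 1.27). After Rpn11, the highest fitted differences were 0.38 for Prosalpha2 and 0.38 for the paralog Prosalpha3T. At the low end stood Rpn6 with -0.36 (95% interval -0.78 to 0.06), and the paralogs Rpn13R with -0.26 and Rpt3R with -0.20. With 15 arrays, 0.122% of all probe sets and again no member passed. Leaving out sorted control 4, the array with the lowest core particle average, took the core median from 0.26 to 0.06 and the median of all members from 0.18 to 0.05.

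Without sorting, gcm overexpression gave opposite signs for the particles, but no member passed, where 0.444% of all probe sets did. Of the 39 members, 19 had an unadjusted p under 0.05, against 1622 of 13966 probe sets. All 12 core particle genes had a positive difference, with a median of 0.60, and 13 of 14 regulatory genes a negative one, with a median of -0.50. Over all probe sets the median was -0.02, with 6481 positive and 7485 negative, and over the 2085 probe sets in the level range of the general subunits it was -0.05. Other gene lists are set beside these counts. The 8 chaperonin genes were all negative, with a median of -0.36. For 6 of them every gcm array was below every control array, where the share over all probe sets was 6.97%. Of the mitochondrial ribosomal protein genes 46 of 64 were negative, with a median of -0.22, and of the cytosolic ones 23 of 37 were positive, with a median of 0.02. Of the cullin and COP9 signalosome list described below 10 of 16 were positive, with a median of 0.26. Of the list of ubiquitin genes and conjugating enzymes 7 of 10 were positive, with a median of 0.11. None of these genes passed. In the assembly, TER94 and CncC lists 5 of 10, 2 of 7 and 3 of 7 were positive, with medians of -0.01, -0.25 and -0.01. Of these, ref(2)P and STUB1 passed, as given below. Among the marker lists, the 8 neuroectoderm and neuroblast, 5 hemocyte and 4 tracheal genes were also all negative. The 5 glial genes were all positive, but they include gcm itself, whose sign was set by its overexpression.

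Prosalpha5, an alpha ring gene, had the highest difference. Its level was 8.67, 9.38 and 9.81 in whole control embryos and 9.46, 10.46, 10.41 and 10.59 in whole gcm embryos. The gcm array 1 lay among the controls and the other 3 above them, and the difference was 0.95 (95% interval 0.36 to 1.54, adjusted p = 0.131). Prosbeta3 and Prosbeta6 followed with 0.93 and 0.88 (adjusted p = 0.207 and 0.134). Prosbeta2 had 10.05, 10.13 and 10.34 in controls and 10.06, 10.62, 10.63 and 10.67 in gcm embryos, a difference of 0.33 (95% interval -0.05 to 0.70). For Prosbeta5 the difference was 0.60 (95% interval -0.36 to 1.55). Every core gene overlapped between the groups, in that none of the 12 had all gcm arrays above all control arrays, where the share over all probe sets was 5.29%.

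Rpn7, a lid subunit, came closest to the threshold. Its level was 9.63, 9.41 and 9.73 in whole control embryos and 9.09, 8.84, 9.07 and 9.0 in whole gcm embryos, without overlap, and the difference was -0.59 (95% interval -0.90 to -0.27, adjusted p = 0.0822). Rpt5, a base ATPase, had 9.56, 9.22 and 9.49 against 9.21, 8.17, 8.97 and 8.63, a difference of -0.68 (95% interval -1.11 to -0.25, adjusted p = 0.134). Its control array 2 and gcm array 1 were almost level. Rpn8 had a difference of -0.59 (95% interval -1.09 to -0.08, adjusted p = 0.322). In all, 8 of 14 regulatory genes had every gcm array below every control array, where the share over all probe sets was 6.97%.

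Rpt4, another base ATPase, was the exception among the regulatory genes. Its level was 8.65, 8.93 and 8.81 in whole control embryos and 8.84, 9.54, 9.71 and 9.76 in whole gcm embryos. The gcm arrays 2, 3 and 4 were above all controls and array 1 was among them, as for Prosalpha5, and the difference was 0.67 (95% interval 0.19 to 1.14, adjusted p = 0.2). On sorting of gcm embryos, too, Rpt4 was lower while the other Rpt genes were higher.

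Between whole embryo arrays with the same number, the mean core particle difference was 0.35 for number 1, 0.79 for number 2 and 0.57 for number 4, with all 12 genes positive each time. The regulatory means were -0.16, -0.53 and -0.57, with 10, 13 and 13 of 14 genes negative. The calls did depend on array whole gcm 1, whose core particle average was 9.54 against 10.38 to 10.47 on the other whole gcm arrays. That average lay above whole control 1 (9.19) but below whole control 2 (9.62) and 4 (9.90), so the sign of the core difference turned when array 1 was set against either of the latter. Without it 7 members passed, with Prosalpha5, Prosalpha6, Prosbeta3, Prosbeta6 and Rpt4 higher and Rpn7 and Rpt5 lower, while 462 probe sets passed in all. When the fit weighted arrays by their estimated variance, 17 members passed, 9 higher and 8 lower, and 1127 probe sets in all.

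The array labelled whole control 3 moved these values further. With it the core median was 1.50 and the regulatory median -0.39, 11 of 14 regulatory genes were negative, and no member and 0.0573% of all probe sets passed. Blocking by the replicate number left no member called, while the count over all probe sets went from 62 to 43 or 110, depending on whether the array deposited under both numbers was taken as number 2 or 3.

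**Figure D4:**
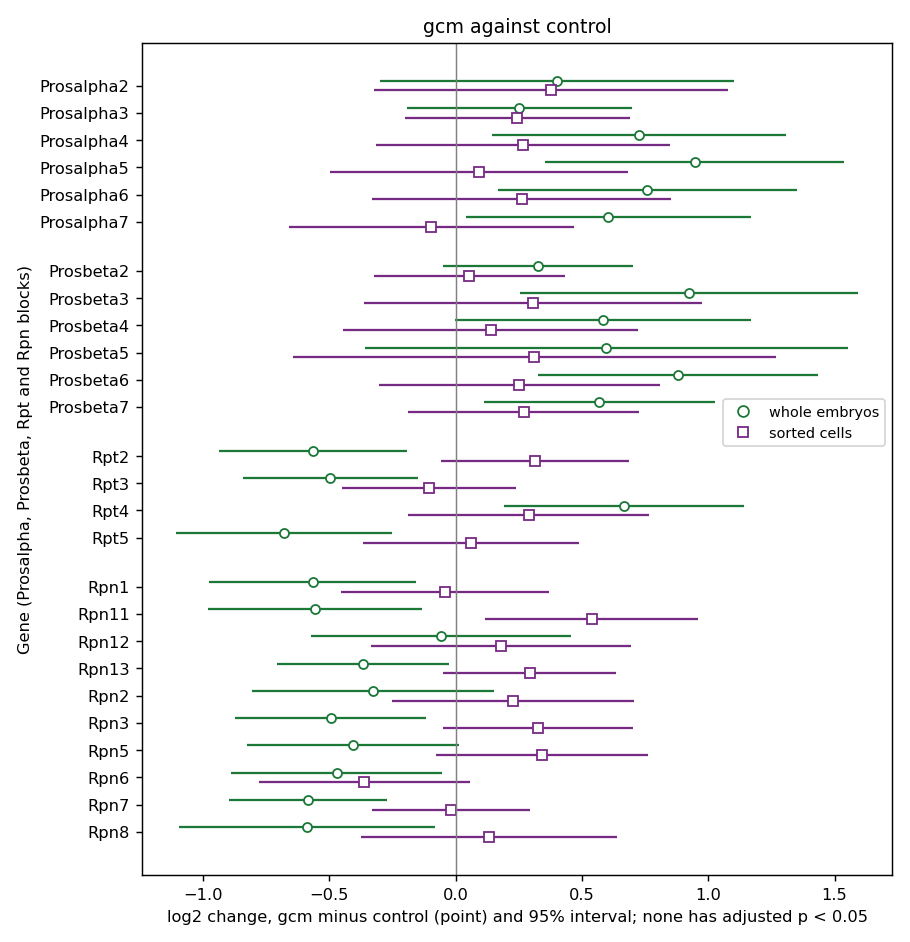
Change in log2 level between gcm and control for the 26 general proteasome subunit genes, in whole embryos and in sorted cells, from the fit to 14 arrays. Points are fitted differences and lines their 95% intervals, and open points mark that none passed at an adjusted p under 0.05. In whole embryos the core particle genes lie to the right of 0 with a median of 0.60, and the regulatory genes other than Rpt4 to the left, with a median of -0.50.

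Transcripts that the mother deposits in the egg also differed between the whole embryo groups. The summed level of 6 germ cell and maternal genes was 32.1 to 37.6 in whole control and 39.4 to 42.5 in whole gcm embryos, and 26.4 to 30.2 in sorted cells. Of the 6, bcd, tor and twe were higher in whole gcm embryos by 1.62, 1.76 and 2.16, while osk, nanos and vas did not pass (0.35, 0.41 and -0.04). In sorted cells bcd, tor and twe had mean levels of 4.23 to 4.99, near background. The part of this difference in the proteasome results was not tested. The Spearman rho between genomic length, described above, and the gcm difference in whole embryos was -0.72 over the 26 general subunits. Within the 12 core genes it was -0.68, within the 14 regulatory genes -0.02, and over the 1679 other genes 0.09. The 111 genes in the length and level range of the core particle had a median of -0.08. The part of length in the gcm difference was not tested.

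The difference between the gcm effects in sorted cells and in whole embryos was tested directly as an interaction. No member passed, where 0.0286% of all probe sets did, and 10 members had an unadjusted p under 0.05, against 1468 probe sets. This contrast reuses every array of the comparisons above. The fitted value was negative for 12 of 12 core particle genes, with a median of -0.45, and positive for 13 of 14 regulatory genes, with a median of 0.61. The highest were 1.10 for Rpn11 (95% interval 0.50 to 1.69, adjusted p = 0.202), 0.88 for Rpt2 and 0.82 for Rpn3. Prosalpha5 was lowest with -0.85 (95% interval -1.69 to -0.02, adjusted p = 0.468), before Prosalpha7 with -0.70 and Prosbeta6 with -0.63. Prosbeta2 and Prosbeta5 had -0.27 and -0.28, with intervals that span 0. With 15 arrays the core median was -1.27, and no member and 0.00716% of all probe sets passed.

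The 13 paralogs of limited expression, several of which are known from the testis, were measured near background. Their group means lay between 4.25 and 5.56, and for 5 of them all 4 group means were below 5. On sorting, Rpn13R was higher in controls by 0.98 (adjusted p = 4.26e-05) and in gcm embryos by 0.57 (adjusted p = 0.00476). Its level was 5.05, 5.43, 5.32 and 5.22 in sorted control cells and 4.15, 4.46 and 4.22 in whole control embryos. Prosalpha6T (-0.57) and Prosalpha3T (-0.47) were lower in controls, and Prosbeta4R1 (-0.44) was lower and Prosbeta2R2 (0.91) higher in gcm embryos. Prosalpha4T1, Prosalpha4T2, Prosbeta2R1, Prosbeta4R2, Prosbeta5R1, Rpn12R, Rpt3R and Rpt4R passed in neither. Leaving out any of 9 arrays, among them whole control 1 and 4, ended the call of Prosalpha3T, and that of Prosalpha6T ended without sorted control 1 or 2 or whole control 4.

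The counts for the lists of related genes that follow stand beside 21.4% of all probe sets lower and 24.9% higher on sorting in controls, and 20.9% lower and 24.7% higher in gcm embryos. Proteins that assemble or accompany the proteasome were lower in sorted control cells for 8 of 10 genes measured, and 1 was higher. Sem1, the small lid subunit, changed by -4.35, Pomp, the chaperone of core particle maturation, by -2.88, the thioredoxin-like Txl by -2.33, and the ubiquitin shuttle Rad23 by -1.90. The deubiquitinases Uch-L5 and Usp14 changed by -1.57 and -0.68, PI31 by -1.53 and the activator REG by -1.33. The autophagy adaptor ref(2)P rose by 1.32, and ntc (-0.06) did not pass. In gcm embryos 8 of 10 were lower and none higher, with Sem1 at -3.24 and Pomp at -3.16, and ntc (-0.89) took the place of Usp14 (0.04).

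Ubiquitin itself is encoded by several genes, which went in opposite directions. In sorted control cells 6 of 10 genes for ubiquitin and its conjugating enzymes were lower and 3 higher. RpL40 and RpS27A, which encode ubiquitin fused to a ribosomal protein and are thus also ribosomal protein genes, changed by -5.55 and -3.66. The polyubiquitin genes Ubi-p63E and Ubi-p5E rose by 1.24 and 0.90. Of the conjugating enzymes, ben, vih, Ubc2 and Uev1A changed by -2.29, -1.73, -1.67 and -1.31, Ubc6 rose by 1.20 and Ubc7 (-0.11) did not pass. In gcm embryos 6 were lower and 3 higher, with RpL40 at -5.22 and Ubi-p63E at 1.0.

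Of 16 genes for cullin ligases and the COP9 signalosome, a lid-like complex that removes Nedd8 from cullins, 8 were lower and 5 higher in sorted control cells. CSN8, Nedd8, Roc1a and SkpA changed by -3.91, -3.73, -2.56 and -2.24, and CSN1b, CSN7, CSN4 and CSN5 by -1.37, -1.35, -0.97 and -0.72. Cul5, Cul3, CSN3, Cul2 and Cul4 rose by 1.16, 0.87, 0.65, 0.61 and 0.48. Cul1, alien and CSN6 did not pass. In gcm embryos the count was 8 lower and 4 higher, with Nedd8 at -4.33 and CSN8 at -3.81.

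Among 7 genes of the segregase TER94 and its cofactors, p47 fell by 2.12 and Ufd4 and Plap rose by 1.10 and 0.69 in sorted control cells, while TER94 itself (-0.18), Npl4, Ufd1 and STUB1 did not pass. In gcm embryos p47 (-1.09) and STUB1 (-1.47) were lower and Ufd4, Npl4 and Plap higher. The transcription factor cnc, whose vertebrate relatives drive proteasome subunit genes, rose by 1.31 and its inhibitor Keap1 by 1.28, while its partner maf-S changed by -3.59 and the oxidative stress genes GstD1, Trxr1 and Gclm by -2.47, -1.84 and -0.93. In gcm embryos cnc (1.02) and Keap1 (1.27) were higher and maf-S, GstD1, Trxr1 and Gclm lower. Gclc passed in neither.

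The chaperonin, another large ring complex present in all cells, had a median change of -0.44. In sorted control cells CCT4, CCT2, CCT1, CCT7 and CCT5 changed by -1.58, -0.78, -0.64, -0.43 and -0.41, CCT8 rose by 0.98, and CCT3 and CCT6 did not pass. In gcm embryos 2 of 8 were lower and 2 higher, shares close to those of all probe sets. Under gcm overexpression in whole embryos, where 0.444% of all probe sets passed, ref(2)P (1.01, adjusted p = 0.044) and STUB1 (1.49, adjusted p = 0.038), a ubiquitin ligase that works with chaperones, were higher. No other gene of the 6 lists passed there and none passed in sorted cells, and neither of the 2 passed with 15 arrays (adjusted p = 0.379 and 0.0602).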

How the data were processed

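Per the labels, total RNA was hybridised to Affymetrix Drosophila arrays. The deposited values are 1 linear intensity per probe set and array, and for their computation and scaling by the authors the sources used here give no method. Intensities were quantile normalised over all 14010 probe sets, transformed as log2(intensity + 16), and tested without the 44 control probe sets, with no filter on dim ones, so 13966 entered. Values of the array labelled whole control 3 come from a normalisation of all 15 distinct arrays.

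The 4 groups, read from the titles, entered 1 fit in limma 3.58.1 (R 4.3.3) with intensity trend and Benjamini-Hochberg adjustment over all probe sets, and the test was checked on simulated data. The number of arrays limits the precision, and intervals are 95%. Symbols came from the platform table and lengths from RefSeq release 6. In each comparison every called member was to be named, otherwise the 3 highest and 3 lowest, and always Prosbeta2 and Prosbeta5. Of each pathway list, the genes called on sorting in controls and under gcm were named. For sorting in gcm embryos only a part of them was named for some lists. The members, lists and tests were chosen with earlier results of these data known.

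Whole embryo arrays of the same number deviated together (r 0.202 to 0.343 over probe sets). With every such pair over 0.1, arrays of the same number were also compared as pairs. Pairs of different numbers ranged from -0.287 to 0.290 and thus overlapped with these. The main fit was not paired, and the replicate block was an alternative to it. In the other comparisons same-numbered pairs reached from -0.058 to 0.218, and not every pair exceeded 0.1. Alternatives were other scalings, pseudocounts of 1 and 64, leaving out the dimmest 40% of probe sets, averaging the probe sets of a gene, variance models, array weights, replicate blocks, only the arrays compared, and each array left out.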

Additional observations from a re-analysis of the deposited data

Results flagged for a closer look

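Within groups of 4 arrays, 73 sets of values were checked for an array whose gap to the nearest other exceeded Dixon's critical value. Chance exceeds that value in about 1 of 20 groups for a single set, and 11 of the sets had such an array. The sets share arrays and are not independent. Most of the 11 came from array whole gcm 1, in core particle genes and in the mean of these genes. The count therefore cannot be set against the chance rate.

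Array whole gcm 1 was low in 7 core particle genes. It had 9.46 for Prosalpha5, where the other 3 arrays had 10.41 to 10.59, and 9.21 for Prosalpha6, where they had 10.35 to 10.52. The levels were 10.06 for Prosbeta2, 10.02 for Prosbeta4 and 9.66 for Prosbeta5, against lowest values of 10.62, 10.79 and 10.51 on the others. Prosbeta6 had 9.95 and Prosbeta7 10.32, against lowest values of 10.97 on the others for each. The mean level over the 12 core particle genes was 9.54 there and 10.38 to 10.47 on the other whole gcm arrays.

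Array sorted control 4 was low in Rpn12, with 6.13 against 6.79 to 6.87, and in Rpn8, with 6.32 against 7.29 to 7.45. Array sorted control 1 was high in Rpn13, with 8.23 against 7.77 to 7.80.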

How the results depend on the processing

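The fall of all 12 core particle genes on sorting passed under all 27 settings in both genotypes, each array left out included. No called member changed direction on sorting. The calls of the other members depended more on the settings, and the medians moved with the scaling. Values near background limit what can be said of Prosbeta5 in sorted cells and of the paralogs. Low sorted values also limit the size of change given for other core particle genes, such as Prosalpha2 and Prosalpha7.

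In controls the median change on sorting of all members, -0.47, was -0.74 as deposited, -0.31 with median centring, -1.0 and -0.24 with pseudocounts of 1 and 64, and -1.56 without the dimmest 40% of probe sets. The core median of -3.25 was -3.77 as deposited, -2.56 with a pseudocount of 64, -2.43 with the array labelled whole control 3 and -2.64 with the mean over probe sets. The regulatory median of -0.25 was -0.88 as deposited and -0.45 with median centring. In gcm embryos the median of all members, -0.24, was -0.68 and -0.094 with pseudocounts of 1 and 64 and -0.95 without the dimmest 40%. The core median of -3.70 was -3.11 with a pseudocount of 64 and -3.26 with the mean over probe sets, and the regulatory median of 0.29 was 0.059 as deposited. As deposited, the median of all probe sets was -0.16 for sorting in controls, -0.19 for gcm in whole embryos and 0.24 for the interaction, and median centring gave 0.27 and 0.15 for sorting in controls and in gcm embryos. Leaving out 1 array, 21 to 25 members passed in controls and 25 to 28 in gcm embryos.

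For gcm in sorted cells the median of all members was 0.032 with array weights and 0.051 to 0.24 with 1 array left out. For gcm in whole embryos it was -0.16 as deposited and -0.10 to 0.094 with 1 array left out. The regulatory median was -0.71 as deposited, the core median 1.50 with the array labelled whole control 3, and 17 members passed with array weights and 0 to 7 with 1 array left out. For the interaction, the median of all members was 0.22 as deposited and -0.12 with array weights, the regulatory median 0.93 as deposited, and the core median -0.87 with array weights and -1.27 with the array labelled whole control 3.

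Signs turned for values that did not pass. The interaction was 0.034 for Prosbeta2 as deposited and 0.016 for Prosbeta5 with a pseudocount of 1, and -0.84 to 0.095 for Prosbeta5 with 1 array left out. In sorted cells the gcm difference with array weights was 0.12 for Rpt3R and -0.086 for Prosbeta5. With 1 array left out it was -0.57 to 0.049 for Rpt3R, -0.23 to 0.70 for Prosbeta5 and -0.050 to 0.21 for Prosbeta2. The replicate block called no member in either gcm comparison. The cause of these shifts was not tested.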
